A study of Homo sapiens with 6 samples.

Results

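The genes of the tumour necrosis factor (TNF) superfamily were compared between A549 and H23, a pair of established human lung adenocarcinoma cell lines. Members were chosen by symbol, as TNFSF or TNFRSF followed by a number and an optional letter, together with TNF, LTA, LTB, LTBR, CD40, CD70, FASLG, NGFR and RELT. These were 40 of the 27968 genes in the tables, 16 ligands and 24 receptors. RNA came from 3 independent cultures of A549, grown in DMEM, and from 3 of H23, grown in a medium labelled RPM1640, both with fetal bovine serum. No culture was treated, and medium and line changed together, so that they cannot be told apart. The libraries were made from total RNA after ribosomal RNA removal.

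Ligands of the family are mostly trimeric membrane proteins that proteases can release. Their receptors carry cysteine-rich repeats outside the cell and fall into 3 kinds. Receptors with a death domain can assemble a complex with FADD and caspase-8 that starts apoptosis. Receptors without one bind TRAF adaptor proteins and switch on NF-kappaB and JNK signalling. Decoy receptors bind ligand without passing on a signal. Most ligands are known from blood cells, while epithelial cells carry several of the receptors.

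LTBR, which signals for lymphotoxin and LIGHT, was abundant in A549 and close to 0 in H23. TNFRSF1A, the TNF receptor that most cell types carry, lies near it and was abundant in both lines. TNFRSF19 was low in A549 and abundant in H23, and those of its transcripts that could be located start at a pair of sites. The sequences around the starts of these genes (RefSeq, GRCh38.p14, 250 bases before to 50 after the start, 5′ to 3′) are shown because later passages refer to them. Capitals mark CpG dinucleotides, the sites of DNA methylation, which was not measured here. Whether these sequences bear on the differences between the lines was not tested.
LTBR (GRCh38.p14, chr12:6383912-6384211, + strand): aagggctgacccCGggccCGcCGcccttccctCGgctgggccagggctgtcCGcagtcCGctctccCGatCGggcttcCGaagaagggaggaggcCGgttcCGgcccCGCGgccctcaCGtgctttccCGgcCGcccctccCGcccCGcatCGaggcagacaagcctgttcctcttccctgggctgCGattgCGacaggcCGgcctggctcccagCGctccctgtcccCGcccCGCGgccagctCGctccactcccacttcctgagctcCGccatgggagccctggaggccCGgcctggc
TNFRSF1A (GRCh38.p14, chr12:6342027-6342326, - strand): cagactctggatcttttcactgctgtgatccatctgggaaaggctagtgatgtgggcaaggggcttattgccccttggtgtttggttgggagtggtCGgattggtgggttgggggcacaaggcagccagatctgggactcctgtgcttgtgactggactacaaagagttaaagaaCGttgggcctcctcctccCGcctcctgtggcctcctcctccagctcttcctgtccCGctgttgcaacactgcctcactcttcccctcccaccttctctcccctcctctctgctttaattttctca
TNFRSF19 downstream start (GRCh38.p14, chr13:23579110-23579409, + strand): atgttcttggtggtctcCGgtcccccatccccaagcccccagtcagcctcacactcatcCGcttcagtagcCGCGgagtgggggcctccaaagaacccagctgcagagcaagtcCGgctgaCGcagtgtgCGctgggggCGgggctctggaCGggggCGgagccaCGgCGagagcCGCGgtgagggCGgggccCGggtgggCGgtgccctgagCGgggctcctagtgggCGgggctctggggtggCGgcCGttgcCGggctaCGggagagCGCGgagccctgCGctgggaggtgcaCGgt
TNFRSF19 upstream start (GRCh38.p14, chr13:23570162-23570461, + strand): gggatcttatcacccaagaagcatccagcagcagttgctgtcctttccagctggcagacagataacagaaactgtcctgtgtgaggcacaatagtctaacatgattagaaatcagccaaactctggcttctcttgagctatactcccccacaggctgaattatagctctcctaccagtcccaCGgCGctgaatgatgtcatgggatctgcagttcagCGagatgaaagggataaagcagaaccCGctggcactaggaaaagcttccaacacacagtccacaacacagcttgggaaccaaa

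LTBR held 29 CpG in these 300 bases and the downstream start of TNFRSF19 held 27. The upstream start of TNFRSF19 held 4 and TNFRSF1A 4. Over all 35116 promoters of the RefSeq table the median was 14 CpG, with quartiles of 4 and 28.

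The A549 libraries held 23399562 to 25348083 estimated read counts and the H23 libraries 29395795 to 42421642. A floor of 3 counts in a library was worth 0.120 to 0.129 CPM in A549 and 0.0706 to 0.1 CPM in H23, where CPM is the count scaled to library size with TMM factors. H23 replicate 1 stood apart. Its rank correlation with the other H23 libraries across tested genes was 0.977, against 0.998 between those 2 and 0.998 among the A549 libraries. The 5 epithelial markers summed to 5709.8 to 5923 TPM in A549 and 3978 to 4125 TPM in H23. Among them KRT8 was at 1436 TPM in A549 and 1435 TPM in H23, KRT18 at 1859 and 2618 TPM. KRT7 was at 2490 TPM in A549 and 1.2 TPM in H23, while EPCAM, at 2.49 and 6.82 TPM, and CDH1, at 3.29 and 13.1 TPM, were low in both lines. Of the distal lung markers, SFTPA1 was at 0 counts in both lines and NKX2-1 at 0 counts in A549 and 320 in H23. NAPSA had 61 counts in A549 and 117 in H23, SFTPB 13 and 3, and SFTPC 2 and 0. Of the blood cell markers, PTPRC, CD3E and MS4A1 had at most 1 count per line. CD14 and CD68 passed 3 counts in both lines, and the summed level of the list was 5.96 to 6.74 TPM in A549 and 6.50 to 13.5 TPM in H23. The list of 5 distal lung markers summed to 0.62 to 0.86 TPM in A549 and 2.90 to 3.81 TPM in H23, and the 3 endothelial markers to 0.02 to 0.05 TPM in A549 and 0.15 to 0.29 TPM in H23. The part of other cells in the results was not tested.

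Of the 40 members, 27 had enough reads for the gene-level test. Of these, 9 were higher in A549, 16 were higher in H23 and 2 did not pass (edgeR's quasi-likelihood test, Benjamini-Hochberg adjusted p under 0.05). Over all 15426 tested genes, 77.2% passed, 37.6% higher in A549 and 39.6% higher in H23. A member that is present in only 1 line could enter the test only through that line and then had to differ, so the share of 92.6% passing among tested members is a description. At least a 2-fold difference in CPM was seen for 5 members higher in A549 and 14 higher in H23. These were 70.4% of those tested, against 50.1% of all tested genes. In CPM the libraries of the lines did not overlap for 26 of the 27, against 82.1% of all tested genes. The median log2 fold, A549 over H23, was -1.16 for the tested members and -0.03 for all tested genes. On the deposited TPM, which divides by length and brings every library to an equal sum, the median of all genes lay lower, at -0.41 on log2(TPM + 1), and there 6 members passed towards A549 and 17 towards H23. Without H23 replicate 1 the counts of members were again 9 for A549 and 16 for H23, and 13774 of all genes passed. In bulk RNA such as this, fewer cells that express a gene and less RNA per cell cannot be told apart. No member that passed changed sign under any scaling or left-out library that was tried.

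**Figure D1:**
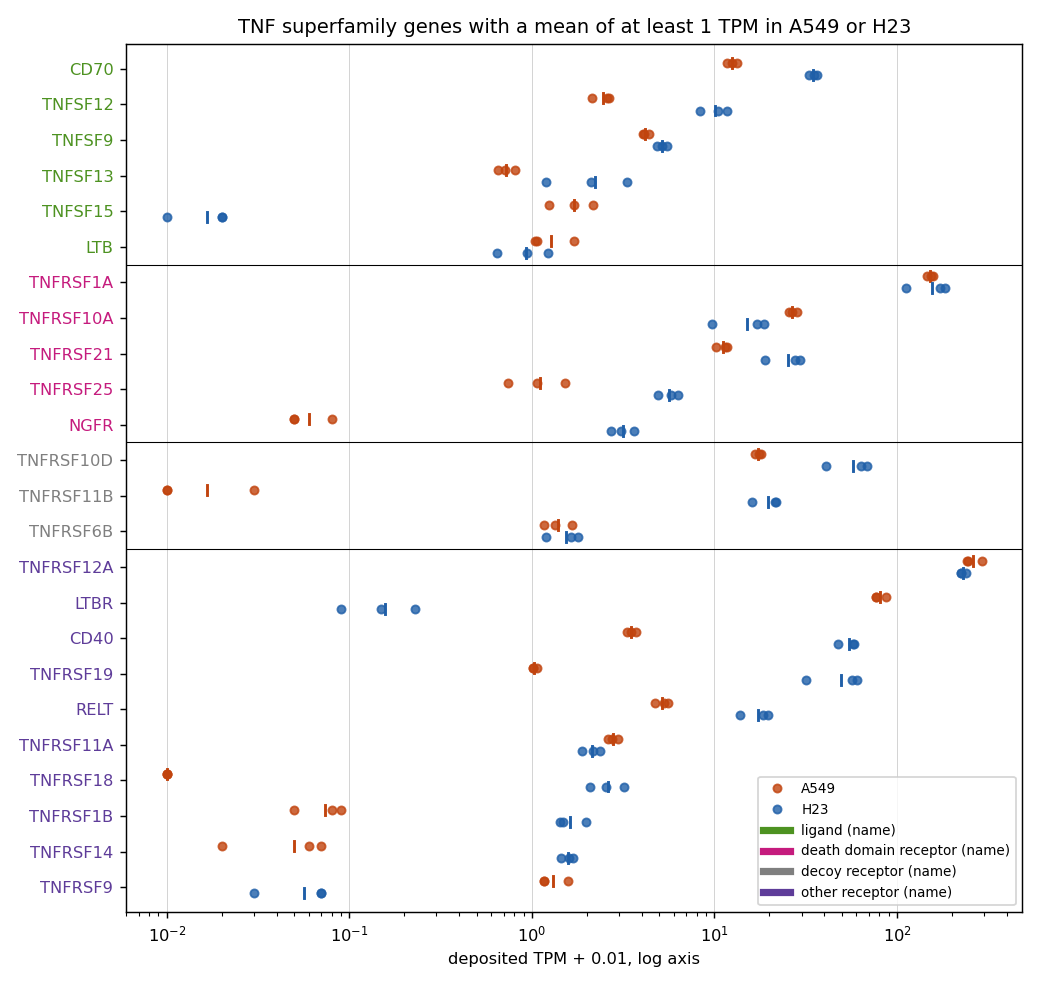
Deposited TPM plus 0.01 (log axis) of the 24 members with a mean of at least 1 TPM in A549 or H23; each point is a library, each tick the mean of 3, and name colours give the role. LTBR lies near 80 TPM in A549 and under 0.3 TPM in H23, while TNFRSF11B, CD40 and TNFRSF19 lie far higher in H23.

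Levels per length, in deposited TPM, placed the same pair of receptors first in both lines. TNFRSF12A, the receptor for the ligand TWEAK, was at 242, 246 and 291 TPM in the A549 libraries and at 225, 239 and 224 TPM in the H23 libraries, which made 44.2% of all member TPM in A549 and 32.9% in H23. TNFRSF1A came next, at 158, 147 and 153 TPM in A549 and at 112, 183 and 173 TPM in H23. Below these the order differed. In A549 it ran LTBR at 80.4 ± 5.97 TPM (SD, n = 3), TNFRSF10A at 26.7 ± 1.34, TNFRSF10D at 17.4 ± 0.624, CD70 at 12.5 ± 0.722 and TNFRSF21 at 11.1 ± 0.839 TPM. Of these neighbours only CD70 and TNFRSF21 had overlapping libraries. In H23 it ran TNFRSF10D at 57.6 ± 14.7, CD40 at 54.6 ± 5.94, TNFRSF19 at 49.4 ± 15.4 and CD70 at 34.9 ± 1.87 TPM, and each of these overlapped the next in its libraries. TNFRSF21, at 25.2 ± 5.59 TPM, lay below CD70 without overlap.

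The sums over roles, in TPM, differed between the lines for ligands and decoy receptors. Ligands summed to 23.2, 21.7 and 24.3 TPM in A549 and to 51.4, 56.5 and 55.0 TPM in H23. Decoy receptors summed to 18.9, 19.6 and 20.3 TPM in A549 and to 58.6, 86.1 and 92.0 TPM in H23. The lines did not overlap in either sum. Death domain receptors summed to 191 ± 6.87 TPM in A549 and 205 ± 47.8 TPM in H23, and the other receptors to 354 ± 33.7 and 360 ± 29.3 TPM, with overlap of the lines in both. These sums are descriptions without a test, and single genes make up much of them. Among ligands CD70 was at 12.5 TPM in A549 and 34.9 TPM in H23. Among decoy receptors TNFRSF10D was at 17.4 and 57.6 TPM, and among the other receptors TNFRSF12A was at 260 and 230 TPM.

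Among the 15 receptors without a death domain that are no decoys, 4 were higher in A549, 7 were higher in H23 and 4 were not tested. LTBR was at 77.1, 76.8 and 87.3 TPM in the A549 libraries and at 0.14, 0.08 and 0.22 TPM in the H23 libraries. LTBR had 11251 counts over the A549 libraries, against 21 over the H23 libraries. Its log2 fold was 9.65 ± 0.21 (approximate SE, edgeR adjusted p = 2.11e-07). SCNN1A, the coding gene between TNFRSF1A and LTBR, was low in both lines, at 0.69, 0.99 and 0.81 TPM in A549 and at 0.56, 0.73 and 0.57 TPM in H23 (log2 fold 0.997 ± 0.203, edgeR adjusted p = 0.0032). CD27, the next coding gene on the other side of LTBR, had 0 counts in A549 and 21 in H23, at least 4.59-fold higher in H23 against a floor of 3 counts over the A549 group. Such floors and intervals cover counting error only.

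CD40, which T cells engage on B cells and on some epithelial cells, went the opposite way to LTBR. It was at 3.30, 3.50 and 3.69 TPM in A549 and at 47.7, 58.4 and 57.6 TPM in H23, with a log2 fold of -3.43 ± 0.10 (edgeR adjusted p = 4.91e-07). TNFRSF19, an orphan receptor known from embryonic tissue and from the nervous system, was at 1, 1.05 and 1.01 TPM in A549 and at 31.7, 56.5 and 60.1 TPM in H23 (log2 fold -5.02 ± 0.26, edgeR adjusted p = 4.4e-06). H23 replicate 1 was the low library of that line for both genes, and still lay far above every A549 library. RELT, another receptor of the TRAF-binding kind, was at 4.71, 5.54 and 5.28 TPM in A549 and at 13.7, 19.6 and 18.4 TPM in H23, a log2 fold of -1.17 ± 0.13.

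Of the other tested receptors of this kind, 4 were low in H23 and at or close to 0 in A549. TNFRSF18 (GITR) had 0 counts in all A549 libraries and 3.17, 2.55 and 2.08 TPM in the H23 libraries, at least 41.3-fold higher in H23 against a floor of 3 counts over the A549 group (edgeR adjusted p = 0.000296). TNFRSF14 (HVEM), which binds LIGHT as LTBR does, was at 0.05, 0.01 and 0.06 TPM in A549 and at 1.43, 1.58 and 1.67 TPM in H23 (log2 fold -4.69 ± 0.34). TNFRSF1B, the second TNF receptor, stood at 0.04, 0.08 and 0.07 TPM in A549 and at 1.42, 1.96 and 1.47 TPM in H23 (log2 fold -4.10 ± 0.29). TNFRSF8, the antigen CD30 of activated lymphocytes, stayed under 1 TPM in both lines, at 0.02 ± 0.01 TPM in A549 and 0.620 ± 0.101 TPM in H23, and was also higher in H23. TNFRSF9, a costimulatory receptor of T cells, went the other way, at 1.15, 1.16 and 1.57 TPM in A549 and at 0.02, 0.06 and 0.06 TPM in H23. Its log2 fold was 5.40 ± 0.30 (edgeR adjusted p = 6.25e-06).

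For TNFRSF12A and TNFRSF11A, as for other members, the size of the difference depended on the scale. CD70 had a log2 fold of -0.92 in CPM and -1.41 on log2(TPM + 1), TNFRSF21 -0.62 and -1.09, and TNFRSF10A 1.38 and 0.83. TNFRSF12A had a log2 fold of 0.71 ± 0.09 in CPM (edgeR adjusted p = 0.000234), and 0.17 on log2(TPM + 1), where it did not pass (limma adjusted p = 0.112). TNFRSF11A (RANK), the receptor for the osteoclast factor TNFSF11, was at 2.6, 2.75 and 2.96 TPM in A549 and at 1.88, 2.35 and 2.15 TPM in H23 (log2 fold 0.98 ± 0.11, edgeR adjusted p = 0.00017). On log2(TPM + 1) its difference was 0.27 (limma adjusted p = 0.0345). The remaining receptors had too few reads for the test. TNFRSF13C, the BAFF receptor of B cells, had 8 counts over the A549 libraries and 32 over the H23 libraries. TNFRSF4 had 0 and 6, at least 1.31-fold higher in H23, TNFRSF13B had 1 and 0, and TNFRSF17 had none in any library.

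**Figure D2:**
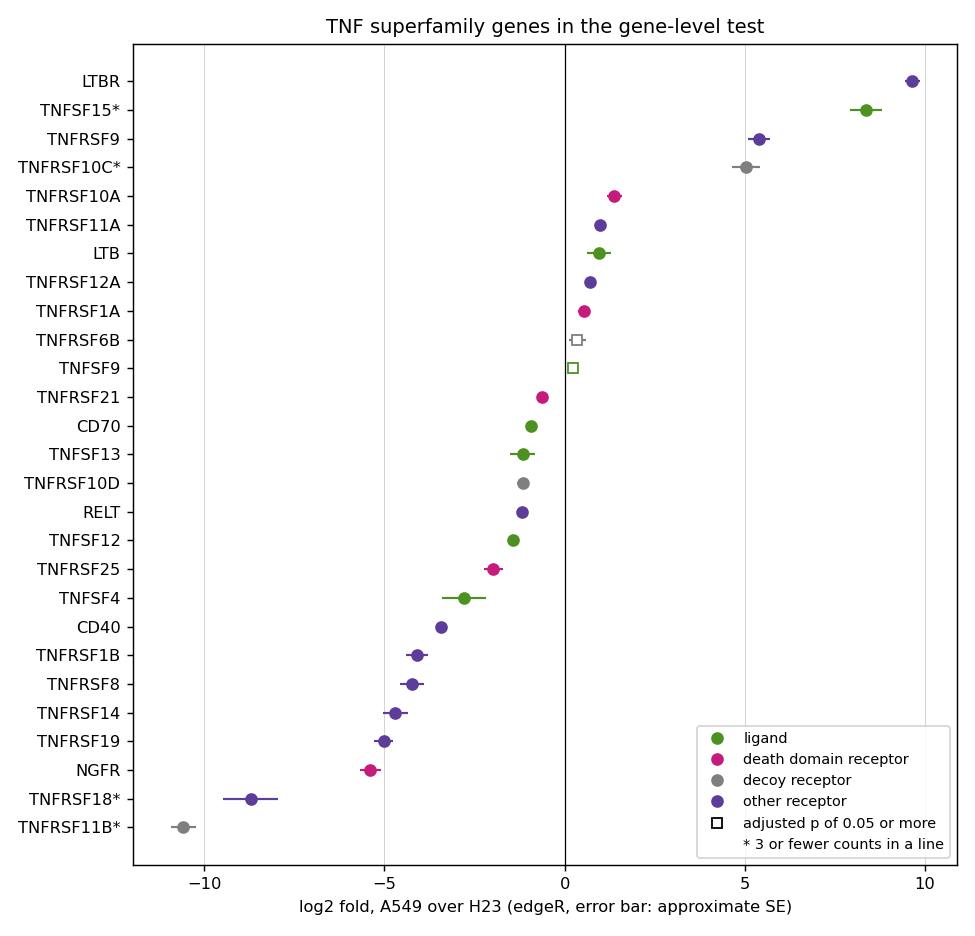
Log2 fold of A549 over H23 for the 27 tested members, with approximate SE, coloured by role; squares did not pass an adjusted p of 0.05. Fitted folds of members marked with an asterisk depend on how a near-zero count is handled, and the text gives ratios or bounds for them; 9 members lie on the A549 side and 16 on the H23 side among those that passed.

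All 5 death domain receptors were tested, and all 5 passed, 2 higher in A549 and 3 higher in H23. TNFRSF10A, a receptor for the apoptosis ligand TRAIL, was at 26.4, 25.5 and 28.2 TPM in A549 and at 9.66, 17.1 and 18.6 TPM in H23. No H23 library reached the A549 range, and the log2 fold was 1.38 ± 0.21 (edgeR adjusted p = 0.000725). TNFRSF1A passed in CPM with a log2 fold of 0.53 ± 0.16 (edgeR adjusted p = 0.0172). On log2(TPM + 1) the same gene had a difference of 0.00036 (limma adjusted p = 0.999), and without A549 replicate 1 its edgeR adjusted p was 0.0525. Over all alternatives its adjusted p ran from 9.25e-08, without H23 replicate 1, to 1, on log2(TPM + 1) with no filter.

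The death domain receptors higher in H23 were known from other tissues or ligands. TNFRSF21, known from neurons and T cells, was at 11.8, 10.2 and 11.5 TPM in A549 and at 18.9, 27.5 and 29.4 TPM in H23 (log2 fold -0.62 ± 0.15, edgeR adjusted p = 0.00635). TNFRSF25, the receptor for TNFSF15, was at 1.05, 1.5 and 0.73 TPM in A549 and at 6.28, 5.74 and 4.88 TPM in H23 (log2 fold -1.98 ± 0.26, edgeR adjusted p = 0.000352). NGFR, the neurotrophin receptor of the family, was at 0.04, 0.04 and 0.07 TPM in A549 and at 3.63, 2.69 and 3.07 TPM in H23, a log2 fold of -5.39 ± 0.30 (edgeR adjusted p = 5.97e-06). The TPM of the lines did not overlap for any of these 3.

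Of the 4 decoy receptors, 1 was higher in A549 and 2 were higher in H23. TNFRSF11B, the secreted protein osteoprotegerin that captures TNFSF11 and TRAIL, was listed at 0.02, 0.00 and 0.00 TPM in A549 and was at 16.1, 21.5 and 21.6 TPM in H23. That was 1 count against 3018, so that H23 stood at 1979 (95% counting interval 355 to 78180) times the A549 level (edgeR adjusted p = 8.75e-07). TNFRSF10D, a membrane decoy for TRAIL, was at 16.7, 17.6 and 17.9 TPM in A549 and at 40.8, 63.3 and 68.6 TPM in H23 (log2 fold -1.16 ± 0.16, edgeR adjusted p = 0.000503). Its close relative TNFRSF10C went the other way, at 0.81, 0.94 and 0.69 TPM in A549 and 0.04, 0.05 and 0.03 TPM in H23. With 74 and 3 counts, A549 stood at 37.6 (95% counting interval 12.4 to 187) times the H23 level. The estimated counts of TNFRSF10C were not whole numbers in any of the 6 libraries, a sign of reads shared with other genes, and that division is not part of the interval. TNFRSF6B, a soluble decoy for several ligands, did not differ detectably, at 1.37 ± 0.248 TPM in A549 and 1.52 ± 0.307 TPM in H23 (log2 fold 0.35 ± 0.24, edgeR adjusted p = 0.209). It shares reads with the read-through gene RTEL1-TNFRSF6B, with 189 counts in A549 and 169 in H23.

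Ligands were sparse in both lines. Of 16, only 7 could be tested, of which 2 were higher in A549, 4 were higher in H23 and TNFSF9 did not pass. CD70, the ligand of CD27, was the most abundant in each line, at 13.2, 11.8 and 12.4 TPM in A549 and at 32.9, 36.6 and 35.1 TPM in H23 (log2 fold -0.92 ± 0.10, edgeR adjusted p = 0.000121). TNFSF12 (TWEAK) was at 2.62, 2.13 and 2.58 TPM in A549 and at 8.31, 11.7 and 10.4 TPM in H23 (log2 fold -1.42 ± 0.15, edgeR adjusted p = 0.000137). Its neighbour TNFSF13 (APRIL), a survival factor of B cells and plasma cells, was at 0.64, 0.70 and 0.80 TPM in A549 and at 3.31, 1.19 and 2.09 TPM in H23. The log2 fold of TNFSF13 was -1.16 ± 0.34 (edgeR adjusted p = 0.0177), and it did not pass without any one of the A549 libraries, at 0.0510 to 0.0624. TNFSF12 and TNFSF13 share a read-through gene, at 0.507 ± 0.0451 TPM in A549 and 1.36 ± 0.766 TPM in H23, and the division of reads among the 3 is uncertain.

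TNFSF15, a ligand for the death domain receptor TNFRSF25, had the widest difference of the 7 tested ligands. It was at 1.23, 1.69 and 2.15 TPM in A549 and was listed at 0.01, 0.00 and 0.01 TPM in H23, or 744 against 3 counts. A549 stood at 378 (95% counting interval 129 to 1838) times the H23 level (edgeR adjusted p = 4.64e-06). All A549 reads of TNFSF15 were assigned to the transcript NM_005118 and all 3 H23 reads to NM_001204344. LTB, the membrane anchor of lymphotoxin, was at 1.06, 1.03 and 1.69 TPM in A549 and at 1.21, 0.63 and 0.93 TPM in H23. The TPM ranges overlapped, while the CPM ranges did not, with a log2 fold of 0.96 ± 0.34 (edgeR adjusted p = 0.0351). That call was lost without each of A549 replicates 1, 2 and 3 and H23 replicates 2 and 3 (0.0532 to 0.122), with DESeq2 (0.0681), with upper quartile factors (0.0573), with the replicate block (0.0509) and on log2(TPM + 1) (limma 0.204). TNFSF9, the ligand of TNFRSF9, was at 4.07, 4.08 and 4.37 TPM in A549 and at 4.81, 5.49 and 5.18 TPM in H23. Its log2 fold of 0.24 ± 0.11 in CPM did not pass (edgeR adjusted p = 0.0841), and it was -0.25 on log2(TPM + 1), where it passed (limma adjusted p = 0.038). TNFSF4 stayed under 1 TPM, at 7 counts in A549 and 79 in H23, and passed as higher in H23 (edgeR adjusted p = 0.00477).

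The ligands that could not be tested included those that start the best known death signals. TNF itself had 1 count over the A549 libraries and 45 over the H23 libraries, 29.5 (95% counting interval 5.03 to 1191) times as much in H23. TNFSF10, which encodes TRAIL, had 23 counts in A549 and 3 in H23, 11.7 (95% counting interval 3.53 to 60.8) times as much in A549. With no filter on low counts 3 of these ligands passed, TNF with an edgeR adjusted p of 0.00156, TNFSF10 with 0.00353 and TNFSF14 (LIGHT) with 0.0329. TNFSF14 had 5 counts in A549 and 0 in H23, at least 2.54-fold higher in A549. LTA had 1 count in A549 and 10 in H23, 6.56 (95% counting interval 0.933 to 285) times as much in H23. TNFSF11 had 0 counts in A549 and 6 in H23, at least 1.31-fold higher in H23. TNFSF13B had 9 and 5 counts, and TNFSF8 had 3 and 0. FASLG and TNFSF18 had no count in any library, which at this depth does not show that they were absent.

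Set beside each other, ligand and receptor levels did not follow a shared pattern across the lines. TWEAK and its receptor TNFRSF12A were both present, with the ligand higher in H23 and the receptor at 260 ± 27.1 TPM in A549 and 230 ± 8.54 TPM in H23. TNFSF15 was present in A549, while its receptor TNFRSF25 was the higher in H23. TNFSF9 was present at a like level in both lines and its receptor TNFRSF9 almost only in A549. LTBR was abundant in A549, where its ligand genes LTA and TNFSF14 had 1 and 5 counts and LTB 1.26 ± 0.373 TPM. Osteoprotegerin and RANK were both detected in H23, where TNFSF11 had 6 counts. CD70 was present in both lines, with CD27 at 0 counts in A549 and 21 in H23. CD40 was abundant in H23, where CD40LG, its ligand, had no count.

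Transcripts of 7 members could be tested for a change in their shares, and 4 passed (edgeR's diffSpliceDGE gene-level F test, adjusted p under 0.05), against 25.8% of the 7539 genes tested. LTBR passed with an adjusted p of 1.34e-05. In A549 the transcript NM_002342 made up 85.3, 87.0 and 88.2% of LTBR, and NM_001270987 the rest. In H23 all 21 reads of LTBR were assigned to NM_001270987 and none to NM_002342. In the GENCODE 29 annotation of GRCh38, NM_002342 starts 8604 bases downstream of NM_001270987. The LTBR sequence shown above overlaps the NM_002342 start region and lies far downstream of the other. The transcript with no count in H23, which allows up to 3 counts over the group, is the one that starts within the CpG-rich stretch. Any link between the CpG content and this difference was not tested.

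**Figure D3:**
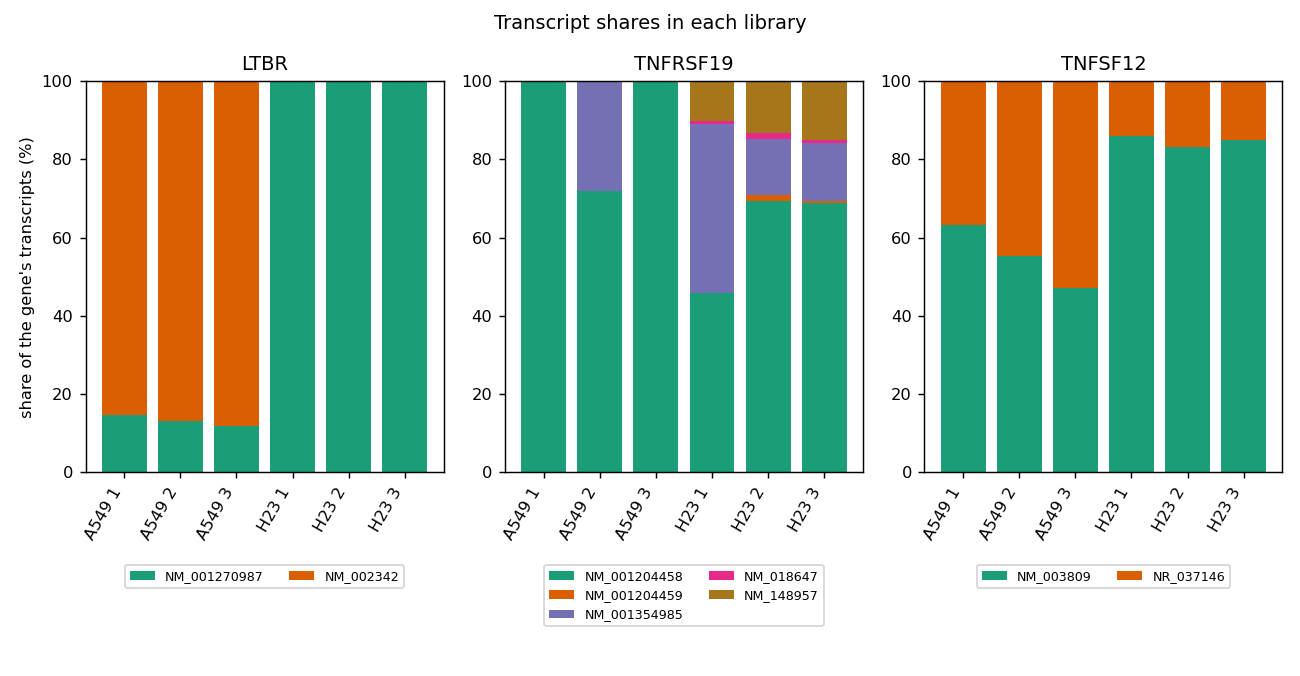
Share of each transcript (percent of the gene's transcripts, RefSeq identifiers) in the A549 and H23 libraries for LTBR, TNFRSF19 and TNFSF12; each bar is a library. The LTBR bars of A549 rest on 11251 reads in all, and those of H23 on 21.

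TNFSF12 and TNFRSF1A also passed, with adjusted p of 0.0118 and 0.00363. For TNFSF12, the coding transcript NM_003809 had 63.3, 55.3 and 47.2% in A549 and 86.1, 83.1 and 85.0% in H23. The other transcript, NR_037146, which GENCODE classes as a target of nonsense-mediated decay, took the rest. In TNFRSF1A the main transcript NM_001065 kept 98.5 ± 0.580% in A549 and 95.2 ± 1.15% in H23, so the change was small. The non-coding form NR_144351 had 0.0433 ± 0.0751% in A549 and 3.21 ± 0.984% in H23.

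TNFRSF19 passed narrowly, with an adjusted p of 0.0433. The transcript NM_148957, which starts at the upstream site with few CpG, had no count in A549 and 10.1, 13.3 and 14.98% of TNFRSF19 in H23. The most abundant one, NM_001204458, starts 9010 bases further down, at the CpG-rich site, and had 100, 71.9 and 100% in A549 and 45.8, 69.2 and 68.8% in H23. A further transcript, NM_001354985, had 43.4% in H23 replicate 1, against 14.3 and 14.8% in the other H23 libraries. The start of NM_001354985 was not located. The A549 shares of TNFRSF19 rest on 276 counts. The TNFRSF19 call was lost without A549 replicates 1 and 3 and H23 replicates 2 and 3 (adjusted p of 0.101 to 0.143) and with transcripts of at least 10 counts over the libraries (0.0503), with the Simes test (0.102) and with the replicate block (0.105). TNFSF12 did not pass without A549 replicates 2 and 3 or H23 replicate 3 (0.0539 to 0.0814), with the Simes test (1) or with the replicate block (0.0767). CD40, CD70 and TNFRSF25 did not pass, with adjusted p of 0.177, 0.78 and 0.442. Some calls were gained under other settings. CD40 passed without A549 replicate 2 (0.0215). TNFRSF11A, not tested in the main fit, passed with transcripts of at least 10 counts (0.0406) and without H23 replicate 3 (0.00188). It did not pass without A549 replicates 1, 2 or 3 (0.0925 to 0.0945).

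Neighbouring members did not always move together. Of the 10 members on chromosome 1, TNFRSF9 alone was higher in A549 and 6 were higher in H23, with 3 not tested. TNFRSF8 and TNFRSF1B lie side by side and were both higher in H23, as were TNFSF12 and TNFSF13 on chromosome 17. On chromosome 8, TNFRSF10D lies between TNFRSF10C and TNFRSF10A, and both of these were higher in A549 while TNFRSF10D was higher in H23. On chromosome 12, LTBR and TNFRSF1A are separated by a single coding gene. The order was taken from RefSeq on GRCh38.p14.

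RefSeq promoter sequences were matched for 27 of the 40 members, some with more than 1 start. Of the 24 members with a mean of at least 1 TPM in a line, 16 were matched. These had a median of 23 CpG at their richest start, with a range of 2 to 46. Abundant members such as TNFRSF12A, CD40 and TNFRSF10D were not matched, so the values do not cover them. The 11 matched members under 1 TPM in both lines had a median of 6 and a range of 1 to 14. RELT, at 46, had the most, and LTB, at 2, had the fewest among matched expressed members. The NF-kappaB consensus, searched on both strands by name, occurred in 9 of 35 member promoters (25.7%), against 5.91% of all promoters of that length. Those were the promoters of 7 genes, LTA, LTB, TNFRSF14, TNFRSF25, TNFRSF9, TNFSF13 and TNFSF14, and those of LTB and TNFSF14 overlap and count the same site again. The AP-1 motif TGACTCA occurred in 5 member promoters of 4 genes, 14.3% against 4.95%, with the overlapping windows of TNFSF14 counting the same site again. TATAAA occurred in 6, 17.1% against 11.5%. The windows of TNFSF15 and TNFRSF9, which both hold TGACTCA, do not cover the start of the transcript with the A549 reads, which in GENCODE 29 lies 13596 bases away for NM_005118 and 2326 bases away for NM_001561. These matches are descriptions of the letters in these windows, and the genes that hold them went in both directions.

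Behind the receptors, 35 genes that carry their signal were examined, of which 34 could be tested. Of these, 17 were higher in A549, 11 were higher in H23 and 6 did not pass, a share of 82.4% against 77.2% of all tested genes. Without H23 replicate 1 the list split into 21 for A549 and 11 for H23. On log2(TPM + 1) the split turned, to 11 higher in A549 and 17 higher in H23. The median of all tested genes also lay lower on that scale, at -0.41. Whether the turn is particular to this list was not tested. In CPM the median log2 fold was 0.29 for the list and -0.03 for all tested genes. The named genes higher in A549 act on caspases, necroptosis or TRAF signals. CASP8, the caspase that death receptors activate first, was at 26.2 ± 1.08 TPM in A549 and 8.08 ± 2.24 TPM in H23 (log2 fold 2.16 ± 0.18, edgeR adjusted p = 4.3e-05). BID, which passes the caspase signal to mitochondria, had a log2 fold of 2.15 ± 0.13. CFLAR, the inhibitor of caspase-8 at the receptor, was higher in A549 too, with 1.71 ± 0.11. XIAP, which blocks effector caspases, had 1.31 ± 0.08, and MLKL, the executor of necroptosis, 1.57 ± 0.10. The adaptor TRAF5 had 1.67 ± 0.18. CASP10, a relative of CASP8 picked after its values had been seen, was at 2.55 ± 0.0416 TPM in A549 and 0.123 ± 0.0839 TPM in H23.

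The genes higher in H23 included adaptors, kinases and a feedback inhibitor. DAXX, a nuclear protein first described as a binder of the FAS death domain, was at 24.0 ± 1.32 TPM in A549 and 119 ± 20.9 TPM in H23 (log2 fold -1.68 ± 0.12, edgeR adjusted p = 2.06e-05). TAB2, which links TRAF proteins to the kinase TAK1, had a log2 fold of -1.59 ± 0.13. TNFAIP3, the NF-kappaB target that shuts the pathway off, was at 1.86 ± 0.237 TPM in A549 and 8.27 ± 2.30 TPM in H23, a log2 fold of -1.59 ± 0.20. RIPK1, the kinase that leads from TNFRSF1A to survival or death, had -1.10 ± 0.14, TRAF4 -1.04 ± 0.11 and the kinase MAP3K5 -0.96 ± 0.12. RIPK3, the necroptosis kinase, had 0 counts in A549 and 14 in H23, at least 3.06-fold higher in H23. BIRC3, an NF-kappaB target that ubiquitinates RIPK1, did not pass, at 17.7 ± 1.66 TPM in A549 and 27.1 ± 16.3 TPM in H23. Without H23 replicate 1 its log2 fold was 1.07 (edgeR adjusted p = 5.97e-15) in place of 0.38 ± 0.41.

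**Figure D4:**
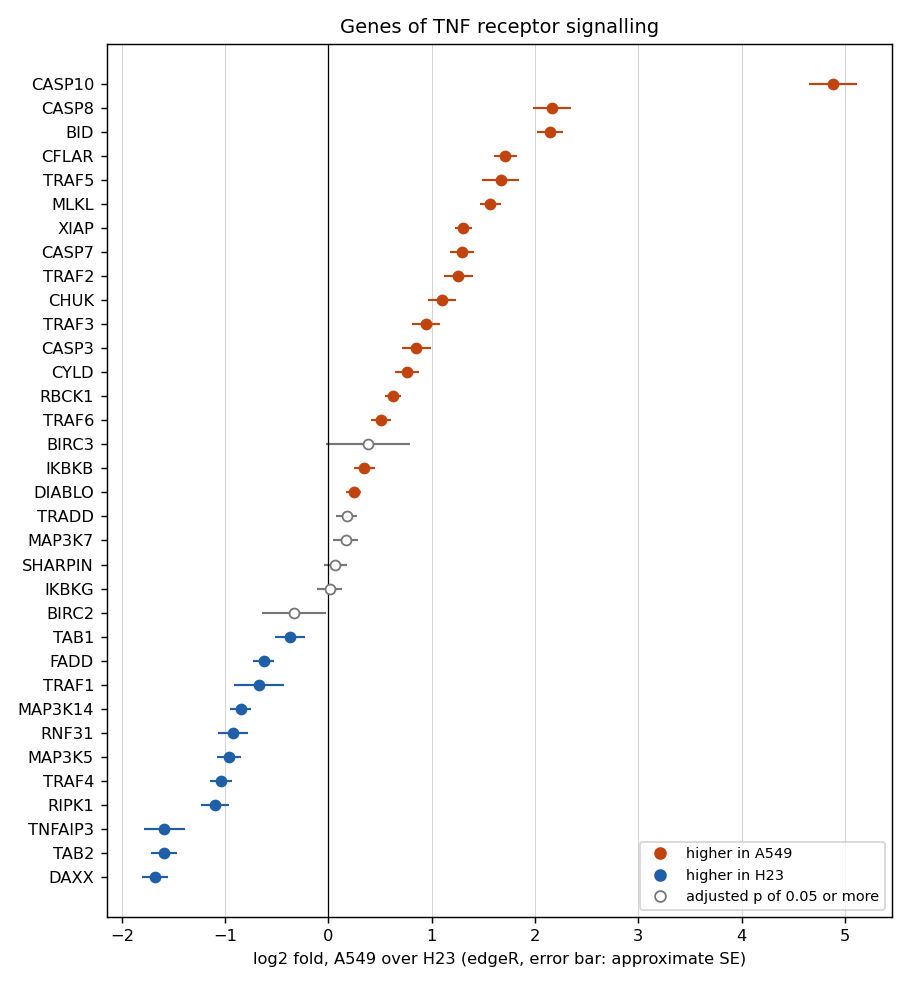
Log2 fold of A549 over H23 for the 34 tested genes of TNF receptor signalling, with approximate SE; open points did not pass an adjusted p of 0.05. CASP10, CASP8 and BID lie highest on the A549 side and DAXX, TAB2 and TNFAIP3 farthest on the H23 side.

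Among 4 genes of ligand processing, ADAM10, ADAM17 and FURIN, proteases that release or mature ligands and receptors, were higher in A549. ADAM10 was at 52.1 ± 1.84 TPM in A549 and 11.6 ± 2.67 TPM in H23 (log2 fold 2.70 ± 0.20, edgeR adjusted p = 2.27e-05). ADAM17, the TNF-converting enzyme, was at 33.9 ± 0.488 TPM in A549 and 24.4 ± 0.860 TPM in H23 (log2 fold 1.03 ± 0.08). For RHBDF2, a partner of ADAM17, H23 had the higher level, at a log2 fold of -0.93 ± 0.13. Of 6 relatives outside the symbol rule, FAS and EDA2R passed with more in A549 and EDA with more in H23. FAS was at 5.64 ± 0.347 TPM in A549 and 4.27 ± 1.91 TPM in H23 (log2 fold 0.93 ± 0.32, edgeR adjusted p = 0.0335). The TPM ranges of FAS overlapped, with H23 replicate 1 at 6.46 TPM and the highest A549 library at 5.96 TPM, while the CPM ranges did not. The FAS call was not examined under other settings. EDA2R, a receptor for the form A2 of ectodysplasin, had a log2 fold of 2.85 ± 0.29 and the ligand gene EDA had -3.11 ± 0.24. CD27, CD40LG and EDAR had too few reads for the test.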

How the data were processed

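Gene and transcript tables of 3 A549 and 3 H23 libraries were analysed. Per the submitters' processing notes, reads were processed with STAR 2.6.0c and RSEM 1.3.0 on hg19. The deposited gene and transcript files hold the authors' expected counts, TPM, FPKM (not used here) and, for transcripts, percent of the gene's transcripts. The strand setting of the counting is not given in the sources used here, so antisense reads cannot be told apart. Expected counts were rounded to whole numbers. Genes passing filterByExpr were tested with edgeR 4.0.16 in R 4.3.3 (TMM factors, robust quasi-likelihood F test, Benjamini-Hochberg over all tested genes), and transcript shares with diffSpliceDGE. Alternatives used DESeq2 1.42.0, limma 3.58.1 on log2(TPM + 1) and log2(TPM + 0.1), other scalings and filters, and each library left out. The SE given with an edgeR log2 fold is approximate, the size of the fold divided by the square root of the F statistic. Scripts were tested on simulated data. Where 1 line had at most 3 counts and the other more, a ratio with an exact 95% interval or a bound against 3 counts is given in place of the fitted fold. Named signalling genes were the 6 with the largest change in each direction among those that passed and reached a mean of 5 TPM in the higher line. Members and lists were chosen with earlier results of these data known. Results for 1 receptor gene are not reported here. Promoters and gene order came from RefSeq on GRCh38.p14, transcript starts from GENCODE 29. No pair of libraries agreed within sampling noise, with chi-square per gene of at least 3.80.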

Additional observations from a re-analysis of the deposited data

How the results depend on the processing

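Among members, 7 to 9 were higher in A549 and 16 in H23 when each library was left out, 8 and 16 with the replicate block, 8 and 16 with upper quartile factors, 9 and 17 with DESeq2, and 11 and 17 with no filter on low counts. The 16 were not always the same genes. Without any one of the A549 libraries TNFSF13 did not pass, and a member with too few reads for the main test took its place. On log2(TPM + 1), log2(TPM + 0.1) and log2(TPM + 1) with no filter, signalling genes higher in A549 were 11, 11 and 11 and higher in H23 17, 17 and 18. Leaving out a library gave 16 to 21 signalling genes higher in A549 and 9 to 11 higher in H23. Members that passed for transcript shares were 2 with the Simes test, 2 with the replicate block and 2 to 4 with a library left out, not always the same genes. The cause was not tested. Replicate numbers are shared by the lines but nothing says that they pair cultures. Deviations of same-numbered libraries correlated at 0.02, -0.04 and 0.05, so the numbers were not taken as pairs, and not every library correlated best with its own number. With the block, 11691 genes passed, against 11910 without it, and 11037 to 13774 with a library left out.

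Log2 folds turned negative in the 3 TPM settings, in the order above, for BIRC3 (-0.45, -0.46 and -0.45), DIABLO (-0.27, -0.28 and -0.27), IKBKB (-0.20, -0.21 and -0.20), IKBKG (-0.57, -0.59 and -0.57), MAP3K7 (-0.35, -0.37 and -0.35), SHARPIN (-0.46, -0.47 and -0.46), TNFRSF6B (-0.086, -0.13 and -0.086), TNFSF9 (-0.25, -0.30 and -0.25), TRADD (-0.34, -0.36 and -0.34) and TRAF6 (-0.031, -0.042 and -0.031). With effective length offsets BIRC3 was at -0.10 and IKBKG at -0.045. With upper quartile factors IKBKG was at -0.12 and SHARPIN at -0.065. With a library left out, BIRC2 ran from -0.53 to 0.15, SHARPIN from -0.036 to 0.12 and IKBKG from -0.10 to 0.074, each with its sign turned only without H23 replicate 1.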
